A study of Brassica rapa with 23 samples.

Results

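BraFLS2 (Bra017563) and BraEFR2 (Bra002305) are the Brassica rapa homologs of 2 Arabidopsis receptors for bacterial proteins. They were chosen by identifier and make up 2 of the 41020 genes listed. The study gave them these names, and of the EFR copies it reported only BraEFR2 as functional in planta. Their transcripts were followed through 23 RNA-Seq libraries of the Chinese cabbage cultivar Norang (B. rapa ssp. pekinensis). Discs of the 1st true leaf of wild-type plants, grown on soil for 17 days with 10 h of light and 14 h of darkness, were incubated with chitin at 100 µg per ml, with flg22 at 100 nM, or with water. Chitin is the polymer of fungal cell walls, and flg22 is a peptide copied from bacterial flagellin. At 30 min there were 3 libraries for chitin, 3 for flg22 and 5 for water, and at 180 min 3 for chitin, 3 for flg22 and 6 for water. No library was treated with elf18, the peptide that EFR recognizes. Each chitin or flg22 library is 1 biological replicate, whereas several water libraries share a replicate number and are told apart below by the number in their titles (library 9, library 13).

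Plants detect conserved microbial molecules through receptor kinases at the cell surface. In Arabidopsis, FLS2 binds flagellin through leucine-rich repeats outside the cell, and EFR, a receptor of the same family found in Brassicaceae, binds the N-terminal part of bacterial elongation factor Tu. On binding, each joins the shared coreceptor BAK1, and an early burst of reactive oxygen, kinase cascades and changes in transcription follow. Chitin is detected by another class of receptors, with lysine motifs in place of leucine-rich repeats, of which CERK1 is the kinase.

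BraFLS2 lies on chromosome A09 at 12614687 to 12620601 of the B. rapa v1.5 build, on the plus strand, a span of 5915 bp. BraEFR2 lies on A10 at 10459324 to 10462502, on the minus strand, a span of 3179 bp. No other listed gene overlaps either, and the nearest neighbour is 2822 bp away for BraFLS2 and 1641 bp away for BraEFR2. Each receptor has a second listed copy, Bra022032 for FLS2 (A02, 18362245 to 18365901) and BraEFR1 (Bra006560, A03, 4048479 to 4051656) for EFR. Both EFR copies were cloned by the study with primers that start at the start codon, and these forward primers show how close the copies are at the 5′ end of the coding sequence. Capitals mark the bases that match the gene, from the A of the start codon on, and the lower-case tail of 8 bases carries the site of the cloning enzyme BsaI.
BraEFR2 forward primer: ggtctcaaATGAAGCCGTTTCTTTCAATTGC
BraEFR1 forward primer: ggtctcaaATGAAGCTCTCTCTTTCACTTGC
Over these 23 bases of gene sequence, 19 were identical. Counted from the A of the start codon, with the BraEFR1 base before and the BraEFR2 base after the position, the 4 differences were T8C, C9G, C11T and C19A.

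Both second copies were listed at 0 FPKM in all 23 libraries (FPKM, sequenced fragments relative to gene length and library size). They belong to the entries for which no gene name was assembled. Within each library all such entries were at 0, and their number ranged from 10063 to 11192 between libraries. Whether their 0 is the absence of an estimate or of reads was not tested, and it was not read as absence of the transcript. In other RNA-Seq data of root, stem and leaf that the study cited, BraEFR1 was detected below the level of BraEFR2. The second FLS2 copy was not detected there. The study also amplified BraEFR1 from Norang cDNA. Whether reads of a second copy were assigned to BraFLS2 or BraEFR2 was not tested. The values below are thus those of BraFLS2 and BraEFR2 as the authors' assembly gave them.

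The aligned bases per library ranged from 4.09 to 5.64 gigabases, and the coverage per base ranged from 12.6 to 78.7 for BraFLS2 and from 2.104 to 17.8 for BraEFR2. BraEFR2 values thus rest on fewer reads per base. Per library, 30.1% to 33.2% of all listed genes had an FPKM of 0. As a check of the treatments, BraNHL10 (Bra017272), an early marker of the response to microbial patterns, rose in all 4 comparisons with water, on the log2 scale by 5.62 with chitin and 6.86 with flg22 at 30 min, and by 4.50 and 3.62 at 180 min (highest adjusted p = 6.32e-06 from limma). BraEF1a (Bra006661), a reference gene for qPCR, had a log2 fold change of -0.77 for chitin (adjusted p = 0.00712) and -0.43 for flg22 (adjusted p = 0.103) at 30 min, and of -0.01 and 0.28 at 180 min (adjusted p = 0.978 and 0.332, all from limma). The identifiers could not be paired with gene symbols, so leaf markers and signalling partners such as BAK1 were not checked.

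The FPKM of BraFLS2 at 30 min was 4.44, 3.07 and 2.57 in chitin and 3.55, 4.44 and 3.18 in flg22, against 8.63 (library 1), 8.31 (library 9), 3.51 (library 13), 5.60 (library 17) and 2.54 (library 21) in water. The treated libraries lay in the lower part of the range of water, and the groups overlapped. Water itself was uneven, since library 9 was far above library 13 and library 17 far above library 21, although each pair shares a replicate number. At 180 min, BraFLS2 was at 12.4, 9.81 and 9.03 FPKM in chitin and at 12.0, 13.3 and 12.0 FPKM in flg22. Water at 180 min had 16.1 (library 3), 13.6 (library 7), 14.2 (library 11), 10.7 (library 15), 11.9 (library 19) and 8.52 FPKM (library 23). All 3 flg22 libraries and all 3 chitin libraries fell inside the range of water.

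BraEFR2 was lower than BraFLS2 in every library. At 30 min its FPKM was 1.13, 0.768 and 0.679 in chitin and 0.926, 1.27 and 1.53 in flg22, against 0.926, 1.28, 0.991, 1.27 and 0.829 in water (libraries 1, 9, 13, 17 and 21). These groups overlapped. At 180 min, BraEFR2 had 2.07, 2.75 and 1.46 FPKM in chitin and 3.54, 3.52 and 2.52 FPKM in flg22. In water at 180 min it had 0.773, 0.602, 1.102, 0.585, 1.25 and 0.451 FPKM (libraries 3, 7, 11, 15, 19 and 23). Every chitin library and every flg22 library at 180 min was above every water library of that time. In all 5 pairs of water libraries with the same time and replicate number, the library with the lower number in its title had the higher FPKM of both BraFLS2 and BraEFR2.

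**Figure D1:**
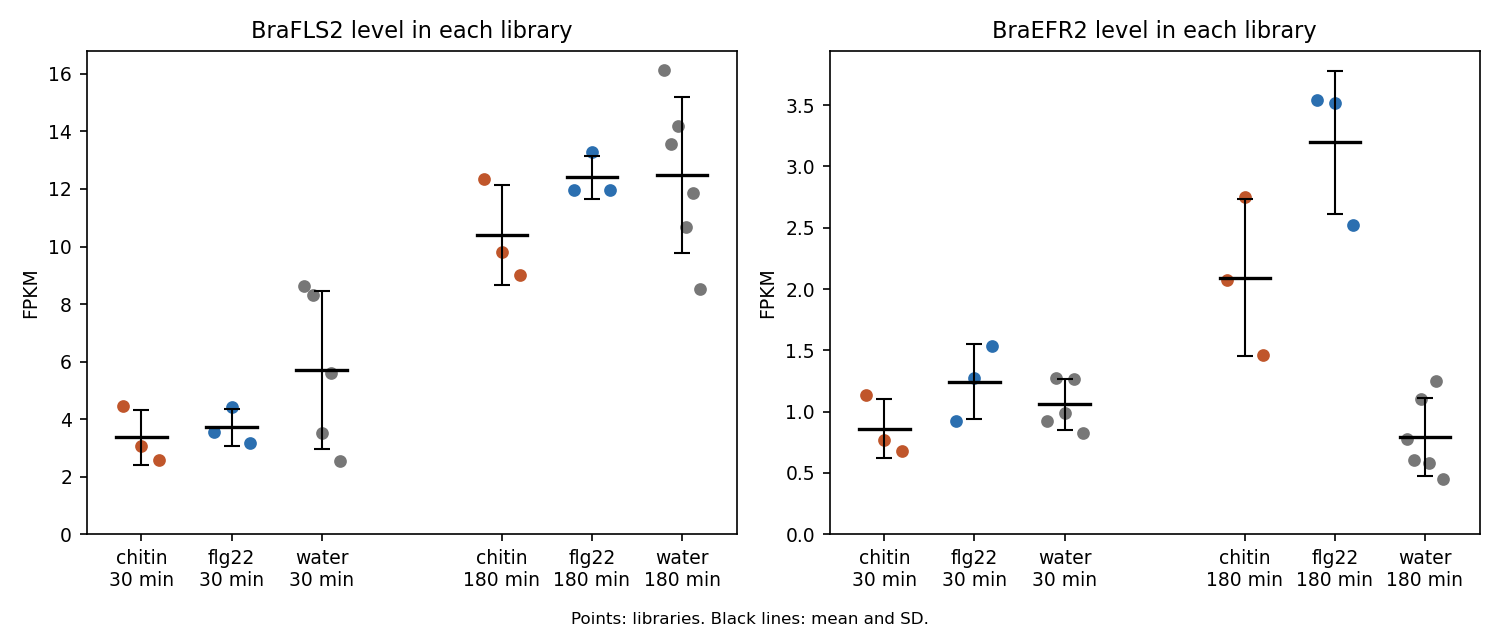
FPKM of BraFLS2 (left) and BraEFR2 (right) in each of the 23 libraries, by treatment and time, with the mean and SD of each condition as black lines. BraFLS2 is higher at 180 min, with 9.03 FPKM or more in all treated libraries and a slight overlap of the 2 times in water (8.52 and 8.63 FPKM), whereas BraEFR2 is above water in every library only in chitin (1.46 to 2.75 FPKM) and flg22 (2.52 to 3.54 FPKM) at 180 min.

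Ordered by mean, BraFLS2 was highest in water at 180 min with 12.5 ± 2.71 FPKM (SD, n = 6), followed by flg22 at 180 min with 12.4 ± 0.752 and chitin at 180 min with 10.4 ± 1.74 FPKM (SD, n = 3 each). Below these came water at 30 min with 5.72 ± 2.75 FPKM (SD, n = 5), flg22 at 30 min with 3.72 ± 0.647 and chitin at 30 min with 3.36 ± 0.970 FPKM (SD, n = 3 each). The ranges of neighbours in this order overlapped except between chitin at 180 min (lowest library 9.03 FPKM) and water at 30 min (highest library 8.63 FPKM). BraEFR2 had a different order. Its mean was 3.20 ± 0.582 FPKM in flg22 at 180 min, 2.09 ± 0.643 in chitin at 180 min and 1.24 ± 0.305 in flg22 at 30 min (SD, n = 3 each). It was 1.06 ± 0.205 FPKM in water at 30 min (SD, n = 5), 0.860 ± 0.241 in chitin at 30 min (SD, n = 3) and 0.794 ± 0.318 in water at 180 min (SD, n = 6). Each of these neighbours overlapped with the next. In each condition, the mean level of BraFLS2 per length stood between the 33.0 and the 56.4 percentile of the tested genes, and that of BraEFR2 between the 4.90 and the 26.5 percentile.

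The effect of each pattern was then tested against the water libraries of the same time, with limma on log2(FPKM + 1) over 24384 genes, namely those that reached 1 FPKM in 3 libraries or more. BraFLS2 reached that level in 23 libraries and BraEFR2 in 13, of which 7 were outside chitin and flg22 at 180 min. A change was called where the p from limma, adjusted over all tested genes by Benjamini-Hochberg, was under 0.05. P-values measure the spread between these libraries. The fit took each library as independent, although the water libraries of each time carry only 3 replicate numbers. In whole leaf discs, fewer cells that express a gene and less RNA per cell cannot be told apart.

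At 180 min, BraEFR2 rose with both patterns. With flg22 its mean FPKM was 4.02 times that of water, a log2 fold change of 1.23 (standard error 0.16, 95% confidence interval 0.91 to 1.56, adjusted p = 5.85e-06 from limma). With chitin the mean was 2.64 times that of water, a log2 fold change of 0.78 (standard error 0.16, interval 0.46 to 1.11, adjusted p = 0.00028 from limma). Of all tested genes, 19.0% rose with flg22 and 21.3% with chitin at this time, while 22.3% and 33.3% fell. After scaling of all libraries to the same median ratio, 5041 rose and 5409 fell with flg22, and 6724 rose and 6959 fell with chitin. The log2 fold changes are on the log2(FPKM + 1) scale, which understates the change of a gene with FPKM near 1, and with a pseudocount of 0.1 they were 1.94 and 1.33. Both rises passed the test for each of the 8 choices of 1 water library per replicate number. Ordered by the study's mapped reads, libraries 3, 11 and 19 would match its flg22 controls, and 7, 15 and 23 its chitin controls. Against these sets the values were 1.04 for flg22 and 0.98 for chitin.

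BraFLS2, whose Arabidopsis homolog is the receptor of flg22, showed no detectable change with flg22 at 180 min, with a log2 fold change of 0.02 (standard error 0.25, interval -0.51 to 0.54, adjusted p = 0.969 from limma). The interval leaves room for a moderate change in either direction. With chitin at 180 min the log2 fold change was -0.23 (standard error 0.25, interval -0.76 to 0.30, adjusted p = 0.468 from limma), and that difference was also within the spread of the libraries.

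At 30 min, with all water libraries of that time as the control, neither gene passed the test with either pattern. BraFLS2 had a log2 fold change of -0.54 with chitin (standard error 0.26, interval -1.08 to 0.01, adjusted p = 0.0767) and of -0.41 with flg22 (standard error 0.26, interval -0.96 to 0.14, adjusted p = 0.167, both from limma). These values stand beside a median over all tested genes of -0.46 for chitin and -0.47 for flg22, with 53.0% and 54.6% of tested genes called lower and 12.0% and 13.5% called higher. FPKM is relative to the whole library. When all libraries were brought to the same median ratio, the medians were -0.04 and -0.05, 4022 genes were called lower and 4299 higher with chitin and 5386 lower and 5090 higher with flg22, and the log2 fold changes of BraFLS2 were -0.13 for chitin and 0.01 for flg22 (adjusted p = 0.714 and 0.969 from limma). The chitin value of BraFLS2 also depended on single libraries. It passed the test without water library 21 (-0.74, adjusted p = 0.00918), without water library 13 (-0.66, adjusted p = 0.0376) and without chitin replicate 1 (-0.71, adjusted p = 0.0487, all from limma). It also passed with the replicate number as a block (-0.58, adjusted p = 0.0317 from limma) and for 2 of the 4 choices of water libraries. The flg22 value passed without water library 21 (-0.61, adjusted p = 0.0253 from limma) and for 1 of the 4 choices, that of water libraries 1, 9 and 17 (-0.84, adjusted p = 0.00183 from limma). Ordered by the mapped reads that the study lists, these would match its flg22 controls. Those that would match its chitin controls, libraries 1, 13 and 21, gave -0.32 with chitin (adjusted p = 0.329 from limma).

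BraEFR2 at 30 min had a log2 fold change of -0.15 with chitin (standard error 0.16, interval -0.49 to 0.19, adjusted p = 0.427) and of 0.12 with flg22 (standard error 0.16, interval -0.22 to 0.46, adjusted p = 0.51, both from limma). With median-ratio scaling the chitin value turned to 0.10 (adjusted p = 0.636) and the flg22 value was 0.41 and passed the test (adjusted p = 0.0341, both from limma). The direction with chitin and the call with flg22 at 30 min were thus set by the scaling, whereas the rises of BraEFR2 at 180 min passed with either scaling (0.84 for chitin and 1.18 for flg22 after median-ratio scaling).

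**Figure D2:**
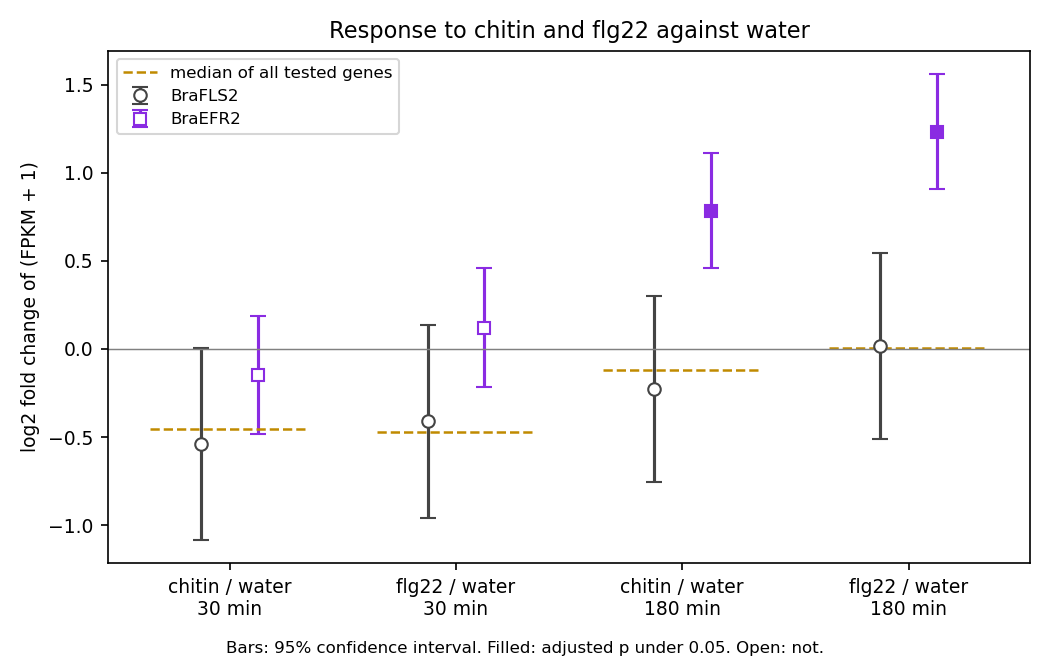
Log2 fold change of FPKM + 1 against water for BraFLS2 (circles) and BraEFR2 (squares), with 95% confidence intervals, and the median of all tested genes as a dashed line. Filled symbols passed an adjusted p of 0.05, which only BraEFR2 did at 180 min, with 0.78 for chitin and 1.23 for flg22. Both values of BraFLS2 at 30 min lie near the median of all genes.

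Whether the responses differed between the times was tested as an interaction. The response of BraEFR2 at 180 min exceeded that at 30 min by 0.93 for chitin (standard error 0.23, adjusted p = 0.00256) and by 1.11 for flg22 (standard error 0.23, adjusted p = 0.00041, both from limma). Of all tested genes, 45.7% differed in this way for chitin and 49.1% for flg22, so a difference between the times was common. The medians over all tested genes were 0.25 for chitin and 0.40 for flg22, and -0.03 and -0.01 after median-ratio scaling. Over the alternatives, the difference of BraEFR2 ran from 0.63 to 1.61 for chitin and from 0.77 to 1.73 for flg22. The difference for flg22 passed for all 32 choices of water libraries at the 2 times and that for chitin for 30 of 32. For BraFLS2 the corresponding differences were 0.31 for chitin (interval -0.45 to 1.07, adjusted p = 0.502) and 0.43 for flg22 (interval -0.33 to 1.19, adjusted p = 0.344, both from limma). Neither passed with all water libraries, and 5 and 8 of the 32 choices of water libraries gave a call. Libraries 1, 9 and 17 with 3, 11 and 19, which would match the study's flg22 controls by mapped reads, gave 0.68 for flg22 (adjusted p = 0.0439 from limma). Libraries 1, 13 and 21 with 7, 15 and 23, which would match its chitin controls, gave 0.27 for chitin (adjusted p = 0.629 from limma).

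The genes also differed over time within each treatment. In water, BraFLS2 was higher at 180 min than at 30 min, with a mean 2.18 times as high and a log2 difference of 1.09 (standard error 0.22, interval 0.63 to 1.54, adjusted p = 0.00227 from limma). The 2 times overlapped slightly, since water library 23 at 180 min (8.52 FPKM) lay below water library 1 at 30 min (8.63 FPKM). The call held for 17 of 32 choices of water libraries, and 11.4% of tested genes differed between the times in water. BraEFR2 in water had a log2 difference of -0.21 (interval -0.49 to 0.07, adjusted p = 0.381 from limma), which did not pass.

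In the treated discs, a comparison added after the data were seen, BraFLS2 was higher at 180 min by 1.40 with chitin (standard error 0.29, adjusted p = 0.000401) and by 1.51 with flg22 (standard error 0.29, adjusted p = 0.000157, both from limma). BraEFR2 was higher at 180 min by 0.72 with chitin (standard error 0.18, adjusted p = 0.00186) and by 0.90 with flg22 (standard error 0.18, adjusted p = 0.000223, both from limma). In all 4 cases every library at 180 min was above every library at 30 min. Such differences were frequent, with 62.7% of tested genes called for chitin and 63.3% for flg22, and the medians of all tested genes were 0.27 and 0.41. BraFLS2 was thus higher at 180 min in all 3 treatments, water included, while BraEFR2 was higher at 180 min in both treatments with a pattern and not detectably so in water.

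Chitin and flg22 were compared directly, 1 pair of patterns at 1 dose each and at 2 times. At 180 min, BraEFR2 was lower in chitin than in flg22 by a log2 difference of -0.45 (standard error 0.18, interval -0.83 to -0.07, unadjusted p = 0.0214, adjusted p = 0.108 from limma), which did not pass over all genes. One chitin library (2.75 FPKM) was above 1 flg22 library (2.52 FPKM). With the patterns set against different choices of water libraries, an alternative added after the data were seen, 1 of 8 choices gave a call. It set chitin against libraries 3, 11 and 19 and flg22 against 7, 15 and 23 (-0.85, adjusted p = 0.0263 from limma). By mapped reads, this would set each pattern against the controls of the other pattern. With the sets exchanged, so that each pattern met its own matched controls, the value was -0.05 (adjusted p = 0.952 from limma). Since the study had separate water controls for each pattern, the pattern and its set of discs cannot be told apart in the direct comparison. BraFLS2 at 180 min differed by -0.24 (interval -0.85 to 0.37, adjusted p = 0.639 from limma). At 30 min the difference between chitin and flg22 was -0.13 for BraFLS2 (interval -0.74 to 0.48, adjusted p = 0.851) and -0.27 for BraEFR2 (interval -0.65 to 0.11, adjusted p = 0.466, both from limma). The background of this comparison was small at 30 min, with 1.39% of tested genes called, and 11.4% at 180 min.

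The balance of the receptors was followed as the ratio of BraFLS2 to BraEFR2 within each library, in which the scaling of the library drops out. At 180 min the ratio of FPKM values was 5.96, 3.57 and 6.17 in chitin and 3.38, 3.77 and 4.74 in flg22, against 20.9, 22.5, 12.9, 18.2, 9.46 and 18.9 in water (libraries 3, 7, 11, 15, 19 and 23). The lowest water library was above the highest treated library. At 30 min the ratio was 3.92, 4.00 and 3.79 in chitin and 3.83, 3.49 and 2.07 in flg22, against 9.32, 6.51, 3.54, 4.41 and 3.07 in water (libraries 1, 9, 13, 17 and 21), and here the groups overlapped.

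On the log2 scale with a pseudocount of 0.1, the mean ratio at 180 min was 2.29 ± 0.42 in chitin (SD, n = 3) and 3.86 ± 0.43 in water (SD, n = 6), a difference of -1.57. In flg22 it was 1.94 ± 0.24 (SD, n = 3), a difference of -1.92 from the same water libraries. Each difference had an exact permutation p of 0.0238 (two-sided), the smallest that 3 against 6 libraries allow, and an adjusted p of 0.0476 over the 4 comparisons of the ratio (exact permutation test). This test took every library as independent and unpaired, although the 6 water libraries carry only 3 replicate numbers. Fewer independent controls would raise the smallest possible p. At 30 min the difference was -0.36 for chitin (exact permutation p = 0.5, adjusted p = 0.5) and -0.68 for flg22 (exact permutation p = 0.214, adjusted p = 0.286), where the smallest possible p was 0.0357. All 3 libraries of each treatment were below the median of water at both times.

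**Figure D3:**
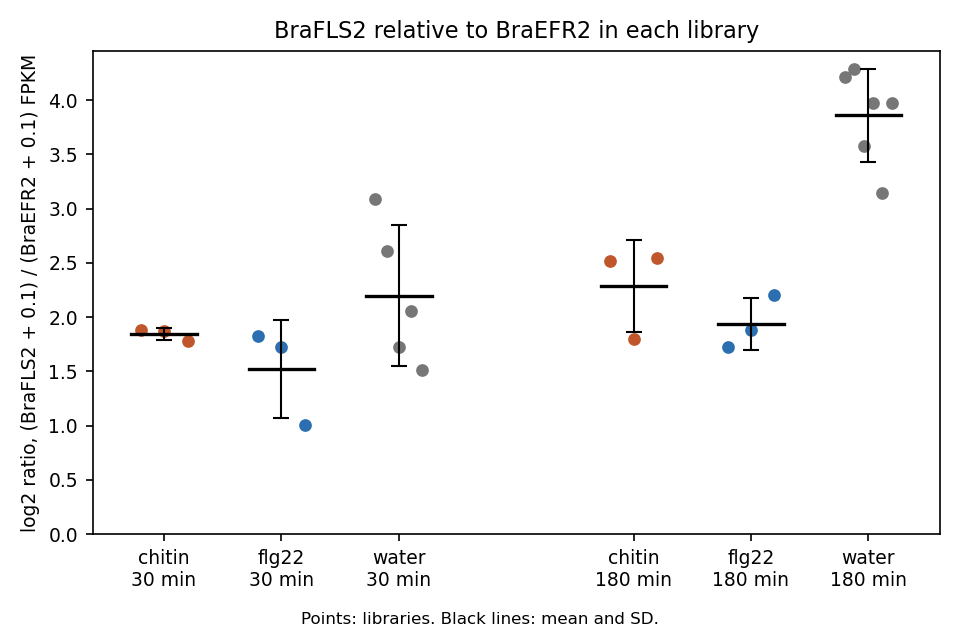
Log2 of the ratio of BraFLS2 to BraEFR2 (FPKM + 0.1 each) in every library, with the mean and SD of each condition as black lines. Water at 180 min, with a mean of 3.86, lies above chitin (2.29) and flg22 (1.94) with no overlap, while the conditions at 30 min overlap.

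Over all 23 libraries the log2(FPKM + 1) values of BraFLS2 and BraEFR2 had a Pearson correlation of 0.34, which describes libraries that share treatments and times. The genes with the pattern most like that of BraFLS2 were Bra032775 (r = 0.98), Bra032945 (r = 0.97) and Bra013375 (r = 0.97). Bra032775 averaged 68.7, 109 and 109 FPKM in chitin, flg22 and water at 180 min, and 5.75, 7.71 and 19.0 FPKM in these at 30 min, so that it shared the higher level at 180 min in every treatment. The genes most like BraEFR2 were Bra030251, Bra006830 and Bra014886 (r = 0.95 each). Bra014886 averaged 414, 686 and 124 FPKM in chitin, flg22 and water at 180 min, and 150, 227 and 207 FPKM in these at 30 min, with flg22 above chitin above water at the later time. These genes are named by identifier only, since no symbols were paired with them.

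The members were set beside the 10 other pattern receptor homologs that the study names. Of these, 7 passed the filter on low values. The second copies of FLS2 and EFR were listed at 0, and LYM1 copy 1 (Bra017956) never reached 1 FPKM. LYM3 (Bra008320), a homolog of a peptidoglycan receptor, passed the filter through 3 water libraries at 180 min, 1 water library at 30 min and 1 chitin library at 30 min, so its lower calls at 180 min follow in part from the filter. At 30 min, 4 of the 7 rose and 1 fell with each pattern, and their median log2 fold change was 0.80 (chitin) and 0.84 (flg22). At 180 min, 5 rose and 2 fell with chitin (median 1.49), and 3 rose and 2 fell with flg22 (median 0.51), with limma adjusted p under 0.05. Over all tested genes, 12.0% rose and 53.0% fell with chitin and 13.5% and 54.6% with flg22 at 30 min (medians -0.46 and -0.47). At 180 min these shares were 21.3% and 33.3% with chitin and 19.0% and 22.3% with flg22 (medians -0.12 and 0.01).

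Of the chitin receptor homologs, CERK1 and LYK5 rose with both patterns at 30 min. CERK1 (Bra031293) averaged 42.2 FPKM in chitin and 46.0 in flg22 against 11.0 in water at 30 min, and LYK5 (Bra021861), which binds chitin in Arabidopsis, averaged 81.6 and 66.1 against 2.55 FPKM (highest adjusted p = 7.19e-06 from limma). At 180 min LYK5 was higher with chitin (1.74, adjusted p = 1.08e-05) but not detectably changed with flg22 (-0.16, adjusted p = 0.636, both from limma). Its direct difference between the patterns passed (1.90, adjusted p = 0.000571 from limma), and those of the other 6 tested homologs did not. LYM2 copy 2 (Bra009660), a lysine-motif protein, rose in all 4 comparisons with log2 fold changes of 0.93 to 2.12, and LYM2 copy 1 (Bra002021) rose with chitin by 0.80 at 30 min and 1.26 at 180 min. With flg22 its values were 0.37 and 0.51 and did not pass (adjusted p = 0.242 and 0.137 from limma), and its difference between chitin and flg22 passed at neither time (adjusted p = 0.496 and 0.119 from limma). LORE (Bra031434), a homolog of the Arabidopsis lectin kinase for bacterial lipopolysaccharide preparations, had log2 fold changes of 0.49 with chitin (adjusted p = 0.12) and 0.84 with flg22 at 30 min, and of 1.66 and 1.04 at 180 min. LYM1 copy 2 (Bra016402), a homolog of a peptidoglycan-binding protein, fell in all 4 comparisons, by 0.52 with chitin and 0.69 with flg22 at 30 min and by 1.29 and 0.72 at 180 min. With median-ratio scaling its calls at 30 min were lost, and the call with chitin at 30 min was also lost without chitin replicate 1 or 3 and in all 4 choices of water libraries. With flg22 at 180 min, the number of homologs called lower was 2 with all water libraries and as low as 0 over the choices of water libraries, and the number called higher was 3 and as low as 2.

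**Figure D4:**
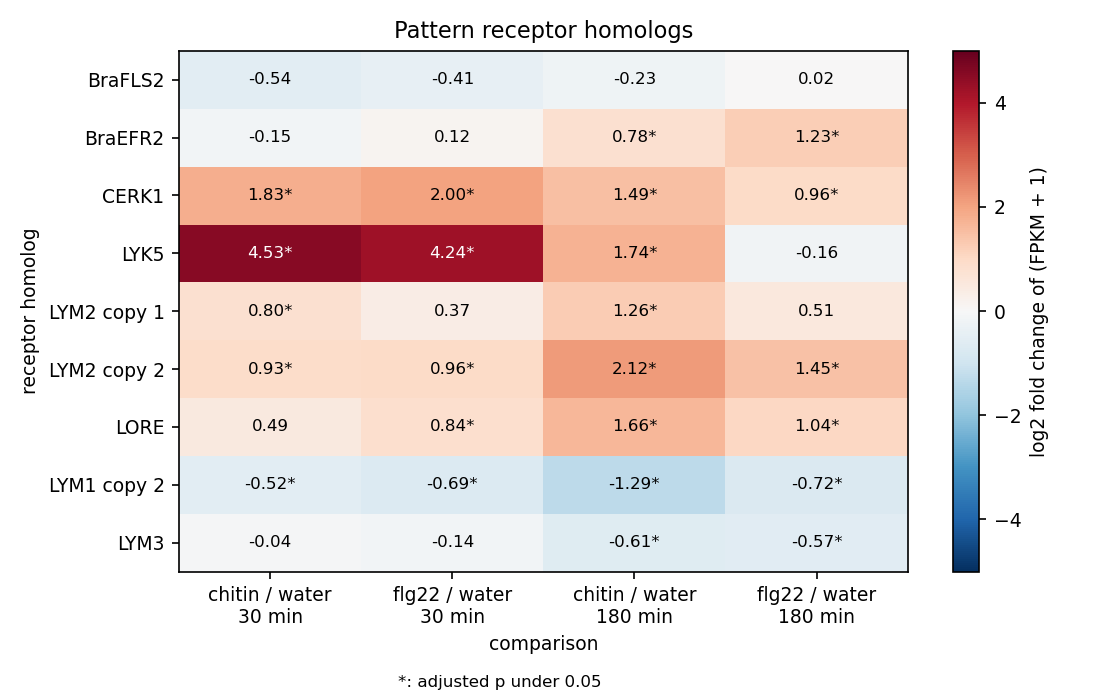
Log2 fold change of FPKM + 1 against water for BraFLS2, BraEFR2 and the 7 other pattern receptor homologs that were tested, with a star where the limma adjusted p was under 0.05. BraFLS2 has no star, BraEFR2 has stars at 180 min only, and CERK1 has stars in all 4 comparisons, with 1.83 and 2.00 at 30 min and 1.49 and 0.96 at 180 min.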

How the data were processed

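Leaf discs, several per replicate, were treated with water, chitin or flg22, and stranded mRNA libraries were sequenced. Per the submitters' processing notes and the methods, the authors trimmed reads with Trimmomatic (version 0.36), mapped them to the B. rapa v1.5 chromosomes with HISAT2 and ran StringTie (version 2.0). The deposited tables hold 1 row per gene with FPKM values, TPM values and coverage per base, a signal. The authors also named DESeq2, which needs read counts. These were not used here.

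The 23 libraries were grouped by their labels. The study had separate water controls for chitin and flg22. The labels do not name these sets, so in the main fit all water libraries of a time served both. Ordered by the mapped reads that the study lists, libraries 9, 17, 3, 11 and 19 would match its flg22 controls. Libraries 13, 21, 7, 15 and 23 would match its chitin controls, and library 1 the control shared at 30 min. This match rests on depth and was not tested. Values for the matched sets are given beside several results of the main fit. BraFLS2, BraEFR2 and the lists were chosen with earlier results of these data known. The 24384 genes that reached 1 FPKM in 3 or more libraries entered a limma fit (version 3.58.1 under R version 4.3.3) of log2(FPKM + 1). It had 1 term per condition and a trend of the variance over the mean level, and p-values were adjusted by Benjamini-Hochberg. The ratio of BraFLS2 to BraEFR2 was tested with an exact permutation test (scipy version 1.17.1). The fit was tested on simulated data. No library was a copy of another, with at most 1 identical value above 0 between 2 libraries. Aligned gigabases were taken from the ratio of coverage to FPKM, and since read counts were not used, no counting intervals are given.

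Replicate numbers were taken to pair libraries where every same-numbered correlation of deviations was over 0.1. Against water, these were 0.31 to 0.47 in chitin and 0.24 to 0.43 in flg22 at 30 min, and 0.15 to 0.51 in chitin at 180 min, so that the numbers pair these libraries. In flg22 at 180 min they were -0.05 to 0.18. Alternatives were a pseudocount of 0.1, no filter, median-ratio scaling, TPM, a fit of only the conditions compared, the replicate number as a block, 1 water library per replicate number, a fold change of 2 with an unadjusted p under 0.05, and each library left out.

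Named genes were BraFLS2 and BraEFR2, their second copies, other receptor homologs of the study that passed, BraNHL10 and BraEF1a as checks, and the 3 genes most correlated with each over the 23 libraries. Only 1 of 41020 identifiers matched the RefSeq gene table, so other pathway genes and sequences by gene were not used here.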

Additional observations from a re-analysis of the deposited data

Results flagged for a closer look

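The response of BraEFR2 differed between the times of treatment for both patterns. For chitin, the log2 fold change against water at 180 min exceeded that at 30 min by 0.93 (adjusted p = 0.00256), and for flg22 it did so by 1.11 (adjusted p = 0.00041, both from the interaction in limma). The chitin response was 0.78 at 180 min and -0.15 at 30 min, and the flg22 response was 1.23 at 180 min and 0.12 at 30 min, with all 3 libraries of each pattern above all 6 water libraries at 180 min. The interaction included 5 water libraries at 30 min. It was called for 45.7% of tested genes with chitin and 49.1% with flg22, with medians over all tested genes of 0.25 and 0.40. No library of water stood far from the others of its time in BraFLS2, BraEFR2 or their ratio by the gap criterion of Dixon.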

How the results depend on the processing

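For the 18 limma comparisons of BraFLS2 and BraEFR2, 317 of 344 alternatives kept the direction and the side of the threshold. For the 4 comparisons of their ratio, so did all 8 alternatives with a test, and the other 46, values with no test, moved by less than 1 SD. The rise of BraEFR2 with flg22 at 180 min did so in all 18 (log2 fold change 1.04 to 1.94, highest adjusted p = 0.000336 from limma), and that with chitin in 17 of 18 (0.59 to 1.33, highest adjusted p = 0.00848 from limma). In the remaining alternatives the cause was not tested, apart from what their construction shows. Under the rule of a fold change of 2 on the log2(FPKM + 1) scale, BraEFR2 no longer passed for chitin at 180 min (0.78) or for its difference between the times (0.93). Median-ratio scaling reversed BraEFR2 with chitin (0.10) and BraFLS2 with flg22 at 30 min (0.015), brought BraEFR2 with flg22 at 30 min past the threshold (0.41, adjusted p = 0.0341 from limma) and turned the difference of the flg22 response of BraFLS2 to -0.0030. The replicate block, where the numbers pair the samples, brought BraFLS2 with chitin at 30 min past the threshold (-0.58, adjusted p = 0.0317 from limma) and changed no other call.

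Choices of water libraries changed further values. BraFLS2 at 30 min reached -0.97 with chitin and -0.84 with flg22 (adjusted p = 0.000626 and 0.00183 from limma). With flg22 at 180 min it turned to -0.16, and its differences between the times ran to -0.084 and 0.91 for chitin and to 1.03 for flg22. The difference of BraFLS2 between the times in water fell short of the threshold at 0.48, that of BraEFR2 turned to 0.087, and the difference of the chitin response of BraEFR2 fell short at 0.63 (adjusted p = 0.0539 from limma). With the patterns set against different choices of water libraries, BraFLS2 in chitin minus flg22 turned to 0.52 at 30 min and 0.11 at 180 min. BraEFR2 at 180 min passed at -0.85 with chitin set against libraries 3, 11 and 19 and flg22 against 7, 15 and 23. With these sets exchanged, which is the arrangement that would match the study's controls by mapped reads, it was -0.05 (adjusted p = 0.952 from limma). Leaving out 1 library gave BraFLS2 values of -0.74 to -0.38 with chitin and -0.61 to -0.25 with flg22 at 30 min, of -0.080 to 0.089 with flg22 at 180 min, and of -0.30 to 0.0052 for chitin minus flg22 at 30 min.

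Over all tested genes, the rule of a fold change of 2 with an unadjusted p called 2001 higher and 2446 lower with chitin and 2336 and 3872 with flg22 at 30 min, against 2927 and 12914, and 3291 and 13313, by adjusted p. At 180 min it called 2232 and 3337 with chitin and 1629 and 2215 with flg22, against 5194 and 8108, and 4625 and 5439. For water over time, 1383 were higher and 1400 lower, with 99 to 3722 and 118 to 2049 over the alternatives. Chitin against flg22 gave 995 higher and 1773 lower at 180 min (452 to 1694 and 680 to 2679) and 134 and 204 at 30 min (up to 451 and 403). With only the 6 libraries of that comparison at 30 min, limma called 0, and 3497 genes had an unadjusted p under 0.05. The difference of the response between the times was higher in 7521 and lower in 3613 genes for chitin (3227 to 9230 and 2441 to 5667) and 9041 and 2938 for flg22 (4330 to 10824 and 2214 to 5135). Fewer homologs also passed at a fold change of 2, with 2 of 7 higher at 30 min for either pattern.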
